A study of Arabidopsis thaliana with 7 samples.

Results

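The nuclear auxin response genes were read from an RNA-seq count table of Arabidopsis thaliana seedlings as 3 families: the receptors TIR1 and AFB1 to AFB5 (6 genes), the Aux/IAA repressors (29 genes) and the auxin response factors ARF1 to ARF23 (23 genes). They were selected by gene identifier as whole families, with no threshold on a measured value, and all 58 were found among the 33602 genes of the table. The samples were 3 replicate libraries of total RNA from wild-type seedlings of the Col-0 accession, grown for 14 days on MS medium at 22 °C in 16 h light and 8 h dark. No treatment other than this temperature is named, there was no second genotype or condition, and the sources used here give no hour of harvest. Whether the 3 replicates were separate growths of plants is not stated, so each SD and test covers the spread between these libraries alone, and that spread may be technical. The study was designed to set the transcription of each gene beside its H3K4 methylation, and its 4 chromatin libraries were not analysed here.

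Auxin acts in the nucleus by gluing a receptor to a repressor. TIR1 and the AFB proteins are F-box subunits of an SCF ubiquitin ligase, and auxin fills the contact between them and a short degron in most Aux/IAA proteins, which are then destroyed. In the absence of auxin, Aux/IAA proteins hold ARF transcription factors on their target promoters and recruit the TPL corepressor. Only some ARFs, those with a glutamine-rich middle region (ARF5, ARF6, ARF7, ARF8 and ARF19), activate transcription in assays, and the others are classed as repressing. Many Aux/IAA genes are themselves switched on by auxin, which closes a feedback loop.

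Values are CPM (counts scaled to a common library total, with TMM factors). They are read counts per gene and are not divided by transcript length, because no transcript or coding length of the authors' build was used here. An order of genes below is therefore an order of reads, not of molecules per gene. Genes whose mean reached 1 CPM are called expressed. Whole seedlings were sampled, so fewer cells of a type and less RNA per cell cannot be told apart.

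The libraries held 30946664, 18493022 and 20764970 counts in replicates 1, 2 and 3. Replicate 3 stood apart in rRNA, which took 2.97% of its counts against 1.20% and 1.39% in replicates 1 and 2. Low counts were mostly even (84.5 to 86.2% of values from 1 to 19 over all genes, and 20 of 23 such values among the 58 genes), so counts need not be independent molecules. The tissue label was checked on marker genes. The leaf genes RBCS1A, RCA and LHCB1.3 were all expressed, and so were 2 of 3 root genes, with PYK10 at 2385 ± 9.71 CPM (SD, n = 3) and IRT1 at 0.700 ± 0.0689 CPM. Of 3 flower genes 1 was expressed (SEP3, 2.65 ± 0.436 CPM), the 2 seed genes stood at 9.07 and 16.2 CPM, and neither of the 2 pollen genes was expressed.

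Most of the auxin response machinery was expressed, and the genes below 1 CPM were of a few kinds. All 6 receptors, 20 of 29 Aux/IAA genes and 15 of 23 ARF genes reached 1 CPM, together 41 of 58 (70.7%). Over all genes of the table the share was 56.3%, and over protein-coding genes it was 69.2%, so the 58 genes as a whole lay near the protein-coding background. The 17 genes below 1 CPM comprised all 8 ARFs of the chromosome 1 group, 6 Aux/IAA genes whose proteins lack a complete degron, and IAA5, IAA6 and IAA15. At 100 CPM and over stood 7 genes (12.1%, against 7.41% of protein-coding genes): ARF2, IAA9, IAA16, IAA8, IAA7, TIR1 and AFB5. The median of the 58 genes was 24.8 CPM, beside 8.20 CPM over protein-coding genes and 2.95 CPM over the whole table.

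**Figure D1:**
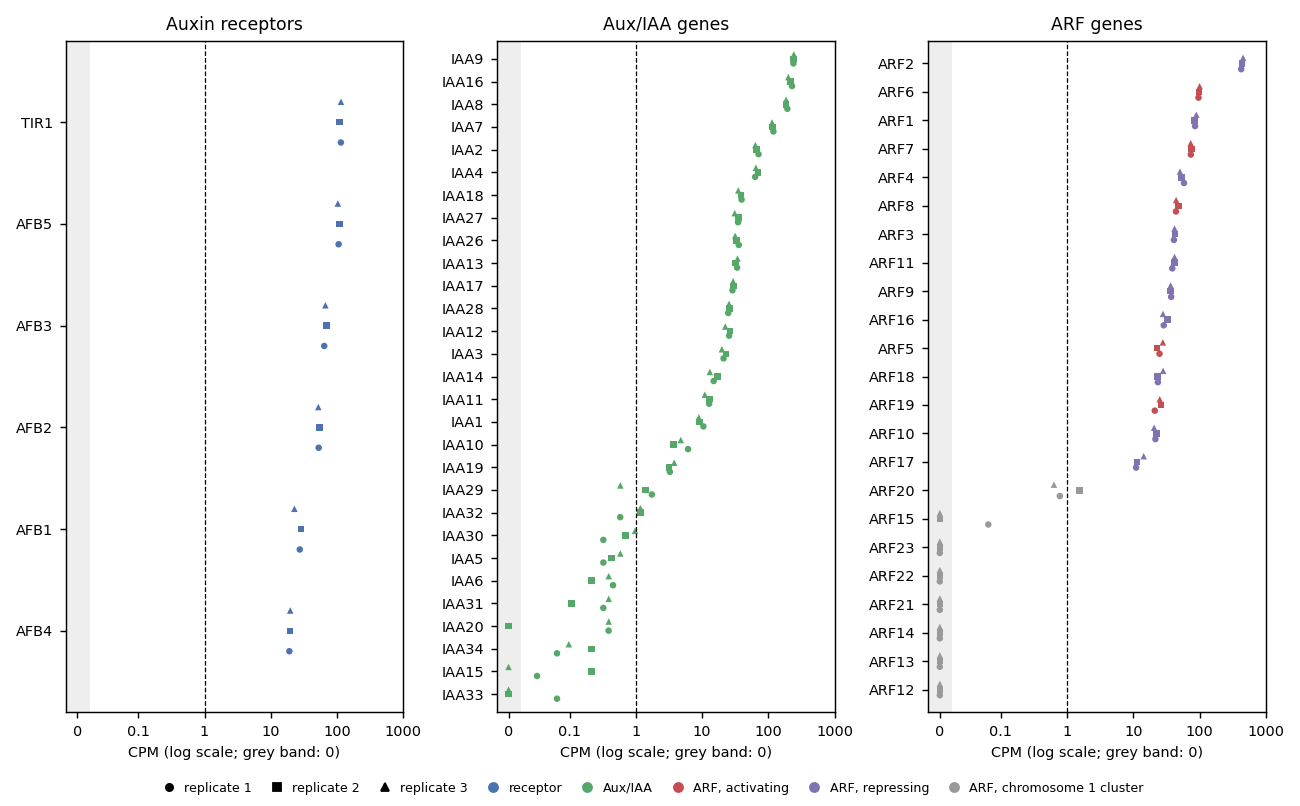
CPM on a log axis for each of the 58 genes, ordered by mean within family; each point is 1 library, the dashed line is 1 CPM and points in the grey band had no count. The receptor means run from 19.4 to 112 CPM, the Aux/IAA genes run from 241 CPM down to single counts, and the chromosome 1 ARF group lies at or near 0.

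The receptors were led by TIR1 and AFB5. TIR1 (AT3G62980), the founding auxin receptor, stood at 114, 108 and 115 CPM in replicates 1, 2 and 3. AFB5 (AT5G49980), known for its part in the response to the synthetic auxin picloram, stood at 106, 108 and 103 CPM. The ranges of the pair overlapped, so neither was placed above the other.

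AFB3 (AT1G12820) followed at 64.0, 69.4 and 66.7 CPM. AFB2 (AT3G26810), its closest relative, lay below it in each library at 52.7, 54.3 and 52.1 CPM. Both act beside TIR1 in root and shoot growth.

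AFB1 (AT4G03190, GRH1 in the gene table) stood at 27.4, 28.5 and 22.7 CPM and was lowest in replicate 3. Its product is known for the fast, non-transcriptional auxin response of roots. AFB4 (AT4G24390), the relative of AFB5, was the lowest receptor at 19.1, 19.4 and 19.6 CPM and the most even, with a coefficient of variation of 1.45%.

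TIR1 took 29.3 ± 1.28% of the receptor reads (SD, n = 3) and AFB5 took 27.5 ± 0.385%, so that the top pair held 56.9 ± 0.940%. AFB3 held 17.4 ± 0.612%, AFB2 13.8 ± 0.123%, AFB1 6.84 ± 0.733% and AFB4 5.06 ± 0.114%. Of the 5 neighbouring steps in this order, 4 were clear of the spread between libraries, the exception being TIR1 and AFB5. The microRNA miR393 is known to cut the transcripts of TIR1, AFB2 and AFB3 and, less, AFB1. These 4 target genes summed to 258 ± 2.10 CPM, and AFB4 with AFB5, which lie outside its reach, to 125 ± 2.67 CPM. The sums are over unequal numbers of genes. The medians per gene were close, at 59.9 CPM for the 4 targets and 62.4 CPM for AFB4 with AFB5.

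**Figure D2:**
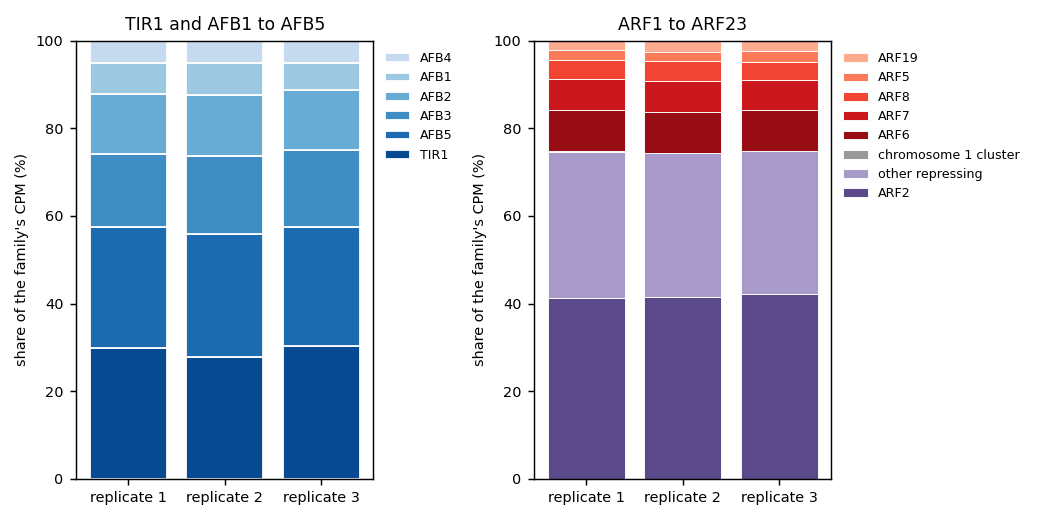
Share of each family's CPM, in percent, held by each receptor (left) and by ARF2, the other repressing ARFs, the chromosome 1 group and each activating ARF (right), 1 bar per library. The partition changed little between libraries: TIR1 held 27.9 to 30.3% of receptor reads and ARF2 held 41.2 to 42.1% of ARF reads.

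The Aux/IAA family spread over a far wider range and was carried by a few genes. The 5 highest, IAA9, IAA16, IAA8, IAA7 and IAA2, held 70.0 ± 0.532% of the family's reads (SD, n = 3). The whole family summed to 1210, 1187 and 1146 CPM in replicates 1, 2 and 3.

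IAA9 (AT5G65670) stood at 239, 241 and 243 CPM and had the lowest coefficient of variation of the 41 expressed genes, 0.728%. IAA8 (AT2G22670), its closest relative, stood at 194, 184 and 185 CPM, below IAA9 in each library. IAA9 and IAA8 encode longer Aux/IAA proteins than most of the family, and IAA9 homologues restrain leaf blade development in tomato.

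IAA16 (AT3G04730) lay between them at 228, 218 and 201 CPM, with replicate 3 lowest. IAA7 (AT3G23050), known as AXR2 from a dominant auxin-resistant mutant, stood at 119, 115 and 114 CPM. These 4 genes did not overlap with one another in range. IAA2 (AT3G23030) stood at 71.0, 66.2 and 63.7 CPM and IAA4 (AT5G43700) at 63.2, 70.1 and 64.9 CPM, and these ranges overlapped.

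A middle group of 10 Aux/IAA genes lay between 12.2 and 37.7 CPM. It held IAA18 at 37.7 ± 2.26, IAA27 at 33.8 ± 2.30, IAA26 at 33.5 ± 2.14 and IAA13 at 33.2 ± 1.32 CPM, each of which overlapped the next of the 4 in range. Below them came IAA17 (AXR3, whose dominant mutant has agravitropic roots) at 29.3 ± 0.443, IAA28 at 25.3 ± 0.459 and IAA12 (BODENLOS, which restrains ARF5 in the embryo) at 24.7 ± 2.03 CPM. IAA3 (SHY2, which sets root meristem size) stood at 21.2 ± 1.45, IAA14 (SOLITARY-ROOT, which blocks lateral root initiation) at 15.1 ± 2.06 and IAA11 at 12.2 ± 1.03 CPM. Over the 20 expressed Aux/IAA genes, 12 of 19 neighbouring steps in the order were clear of the spread between libraries.

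The lowest expressed Aux/IAA genes were 4 with means from 1 to 10 CPM. Some of them are known to be induced by auxin or shade, but inducible genes were not compared across the family. Whether a low level goes with inducibility was therefore not tested. IAA1 (AT4G14560), an early auxin-induced gene, stood at 10.5, 9.09 and 8.91 CPM. IAA19 (AT3G15540, MSG2), which acts in hypocotyl bending, stood at 3.26, 3.15 and 3.80 CPM. IAA10 (AT1G04100) varied more, at 6.14, 3.69 and 4.77 CPM, and its range overlapped that of IAA19.

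IAA29 (AT4G32280), a gene induced in shade through PIF factors, stood at 1.75, 1.39 and 0.584 CPM from 54, 26 and 12 counts. Replicate 3 was below the other libraries and below 1 CPM. The highest expressed Aux/IAA gene, IAA9, had a mean 194 times that of the lowest, IAA29. Within replicates 1, 2 and 3 the ratio was 137, 173 and 415 (SD 151), highest where IAA29 had its 12 counts. The ratio also depends on the threshold: at a minimum mean of 0.5 CPM the lowest gene was IAA30 and the ratio was 363.

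The 6 Aux/IAA genes whose products lack a complete degron, and so escape the usual auxin-driven turnover, were all below 1 CPM and summed to 2.32 ± 0.647 CPM. Of the other 23 family members 20 were expressed, with a median over the 23 of 25.3 CPM against 0.266 CPM for the 6. That these 6 form a class is textbook knowledge, and they were grouped after the values were known, so no test is attached. IAA32 (AT2G01200) was the highest, with 18, 22 and 24 counts or 0.582, 1.18 and 1.17 CPM. IAA30 (AT3G62100) had 10, 13 and 20 counts, IAA31 (AT3G17600) 10, 2 and 8, and IAA20 (AT2G46990) 12, 0 and 8.

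IAA34 (AT1G15050) had 2, 4 and 2 counts and IAA33 (AT5G57420) had 2 counts in replicate 1 alone. Both are close to the 3 counts a library that a count of 0 also allows if counts are independent. Among genes with an ordinary degron, IAA5 (AT1G15580) had 10, 8 and 12 counts, IAA6 (AT1G52830) 14, 4 and 8, and IAA15 (AT1G80390) 1, 4 and 0. IAA5 and IAA6 are close to IAA19 and are known as auxin-induced genes. At this depth no order among these 9 low genes was drawn.

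ARF2 dominated the ARF family. ARF2 (AT5G62000), a repressing ARF that limits seed size and promotes leaf ageing, stood at 424, 439 and 453 CPM, the highest of all 58 genes and above 99.3% of the genes in the table. Its share of ARF reads was 41.6 ± 0.494% (SD, n = 3). The next ARF, ARF6, drew 98.1 ± 1.87 CPM.

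Among the activating ARFs, ARF6 (AT1G30330) stood at 96.2, 98.1 and 99.9 CPM. ARF8 (AT5G37020), which acts with ARF6 in flower maturation and hypocotyl growth, stood at 44.0, 48.3 and 44.2 CPM. Both are known targets of miR167, and ARF6 exceeded ARF8 by 2.16 ± 0.117 times within libraries.

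ARF7 (AT5G20730, NPH4), which drives phototropism and lateral root formation, stood at 73.7, 75.2 and 73.4 CPM. ARF19 (AT1G19220), its partner in lateral roots, stood at 21.0, 26.2 and 25.0 CPM, lowest in replicate 1. ARF5 (AT1G19850, MONOPTEROS), needed for the embryonic root and for veins, stood at 24.8, 22.8 and 27.9 CPM. The ranges of ARF5 and ARF19 overlapped, and both lay below ARF6, ARF7 and ARF8 in every library.

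The repressing ARFs outside the chromosome 1 group were all expressed, 10 of 10. ARF1 (AT1G59750), a relative of ARF2, stood at 85.5, 83.1 and 89.1 CPM. ARF4 (AT5G60450) stood at 58.1, 53.2 and 50.6 CPM and ARF3 (AT2G33860, ETTIN), its partner in marking the lower leaf side, at 40.9, 42.8 and 41.8 CPM. ARF11 (AT2G46530) at 40.8 ± 1.81 and ARF9 (AT4G23980) at 36.8 ± 0.374 CPM followed. ARF16 (AT4G30080) at 29.9 ± 2.72, ARF18 (AT3G61830) at 25.0 ± 2.77, ARF10 (AT2G28350) at 21.4 ± 0.844 and ARF17 (AT1G77850) at 12.2 ± 1.81 CPM were the lowest of these. Along the order of the 15 expressed ARFs, 10 of 14 neighbouring steps were clear of the spread between libraries. ARF3 and ARF11 were not separated, nor were ARF5, ARF18, ARF19 and ARF10, each from the next.

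Small RNAs are known to cut 3 sets of ARF transcripts. The miR160 targets ARF10, ARF16 and ARF17 summed to 63.6 ± 2.80 CPM and, with ARF5, ARF18 and ARF19, were the 6 lowest expressed ARFs. The miR167 targets ARF6 and ARF8 summed to 140, 146 and 144 CPM. The targets of tasiRNA from TAS3, which are ARF2, ARF3 and ARF4, summed to 534 ± 11.2 CPM, most of it from ARF2. The remaining 7 ARFs outside the chromosome 1 group summed to 312 ± 9.04 CPM with a median of 36.8 CPM. The small RNAs themselves were not measured.

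Summed over genes, activating ARFs drew fewer reads than repressing ARFs. The 5 activating genes summed to 260, 271 and 270 CPM and the 18 repressing genes, with the chromosome 1 group, to 770, 789 and 804 CPM. The ratio was 0.337, 0.343 and 0.336 in replicates 1, 2 and 3, a mean of 0.339 ± 0.00375. An exact two-sided sign-flip test over 3 libraries cannot go below p = 0.25, so none is given.

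ARF2 carried much of that imbalance. Without ARF2, a choice made once the values were known, the summed ratio was 0.765 ± 0.0129, still below 1 in 3 of 3 libraries. Per gene the direction depended on which repressing ARFs were counted. The activating mean was 1.22 ± 0.0135 times the repressing mean with the chromosome 1 group included and 0.679 ± 0.00793 times without that group. Without ARF2 it was 2.60 ± 0.0439 times with the group's 8 genes still counted, and 1.38 ± 0.0243 times with the group left out as well. The medians were 45.5 CPM for the 5 activating genes and 38.8 CPM for the 10 repressing genes outside the group.

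The chromosome 1 ARF group had few counts or none. It comprises ARF12, ARF13, ARF14, ARF15, ARF20, ARF21 and ARF22, recent duplicates known mainly from embryos and seeds, and ARF23, which encodes a shortened protein. ARF12 (AT1G34310), ARF13 (AT1G34170), ARF14 (AT1G35540), ARF21 (AT1G34410), ARF22 (AT1G34390) and ARF23 (AT1G43950) had no count in any library. A count of 0 allows up to 3 counts, which is 0.0970, 0.160 and 0.146 CPM in replicates 1, 2 and 3 (counting error only). That bound takes counts as independent, and since low counts were mostly even it may be too low. No count at all was seen for 16.2% of protein-coding genes.

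ARF15 (AT1G35520) had 2 counts in replicate 1 alone. ARF20 (AT1G35240) was the exception, with 24, 29 and 13 counts, or 0.776, 1.55 and 0.633 CPM. Its mean of 0.986 ± 0.493 CPM lay just under the threshold for expressed, as did IAA32 at 0.976 ± 0.341 CPM, while IAA29 lay just above it at 1.24 ± 0.595 CPM. The 8 genes summed to 1.01 ± 0.481 CPM, against 786 ± 17.4 CPM for the 10 other repressing ARFs. The group members are close copies of one another, and how the authors' counting treated reads that match several copies is not given, so reads may be missing from these genes or be assigned to the wrong copy.

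All of them but ARF23 lie close together. In the TAIR10.1 gene table, ARF13 and ARF14 bound a stretch of chromosome 1 that holds 162 other genes of the count table, of which 100 are protein-coding and 58 are pseudogenes. Of those 100 protein-coding genes 53 were expressed (53.0%), against 69.8% of the 6976 protein-coding genes on chromosome 1. No count was seen for 40 of the 100, and for 90 of all 162 genes, so genes without counts were common in this stretch. Expressed neighbours reached 95.1 ± 2.93 CPM for EMB3003 (AT1G34430) and 75.2 ± 3.44 CPM for STOP1 (AT1G34370), a regulator of aluminium and low-pH tolerance. ARF23 lies apart, beyond a further 587 genes.

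**Figure D3:**
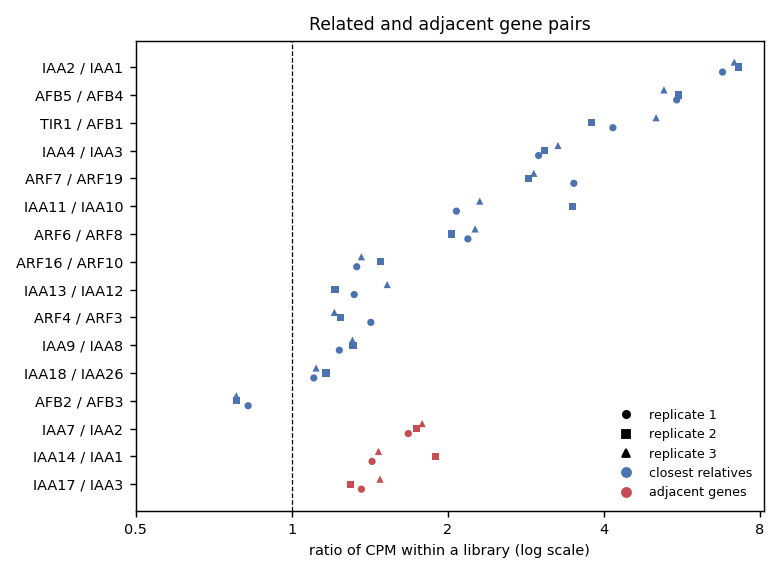
Ratio of CPM between paired genes within each library, on a log axis; blue points are closest relatives, red points are genes adjacent on a chromosome, and the dashed line is equality. Only pairs with both genes expressed are drawn; the mean ratios of relatives run from 0.796 (AFB2 over AFB3) to 7.07 (IAA2 over IAA1), and the points of IAA11 over IAA10 are the most spread, at 2.08, 3.48 and 2.31.

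Closest relatives often drew unequal numbers of reads. The relatives were paired from textbook phylogeny after the values were known. Of 16 such pairs, both genes were expressed in 13 and neither gene in 3 (IAA5 with IAA6, IAA20 with IAA30, and IAA32 with IAA34). In 12 of the 13 the ranges over the 3 libraries did not overlap, and in 7 the genes differed by more than 2 times, with a median of 2.16 times. These counts were not taken for unrelated pairs of expressed genes, so they are not shown to be particular to relatives. The list of pairs is not complete, so these figures hold for the listed pairs alone. IAA7 and IAA14, for example, belong to 1 subclade and were not paired, and stood at 116 ± 2.82 and 15.1 ± 2.06 CPM (SD, n = 3). Among the listed pairs with both genes expressed, the widest gap was IAA2 over IAA1 at 7.07 ± 0.260 times (SD, n = 3). AFB5 exceeded AFB4 by 5.45 ± 0.190 times, TIR1 exceeded AFB1 by 4.34 ± 0.647 times and IAA4 exceeded IAA3 by 3.11 ± 0.138 times. ARF7 exceeded ARF19 by 2.86 and 2.93 times in replicates 2 and 3 and by more in replicate 1.

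IAA18 and IAA26 were the pair whose ranges overlapped, at a ratio of 1.13 ± 0.0329. Within libraries IAA18 was still the higher one each time, by 1.10, 1.16 and 1.11 times in replicates 1, 2 and 3. These ratios are of reads and would change with transcript length. The pairs are similar in sequence, so a part of the reads of one could also have been lost or assigned to the other.

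In 3 places Aux/IAA genes lie side by side, with no gene of the TAIR10.1 gene table between them. IAA7 drew 1.74 ± 0.0538 times the reads of its neighbour IAA2. IAA14 drew 1.60 ± 0.258 times those of IAA1, and IAA17 drew 1.38 ± 0.0914 times those of IAA3. In each case the ranges of the neighbours did not overlap. Such neighbours sit in the order IAA7, IAA14 or IAA17 (1 subclade) beside IAA2, IAA1 or IAA3 (another), and the member of the first subclade was the higher one in all 3 places and all 3 libraries. Only these 3 places were compared, and other adjacent genes were not, so no rule for the subclades is drawn. Of the 58 genes, 23 lie on chromosome 1, 7 on chromosome 2, 10 on chromosome 3, and 9 on each of chromosomes 4 and 5.

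The spread between libraries was small for these genes. The median coefficient of variation over the 41 expressed genes was 5.41%, beside 7.22% over all expressed genes, which sit lower on average (median 19.1 CPM against 33.8 CPM). It was 2.92% for the receptors, 6.40% for Aux/IAA genes and 4.43% for ARFs. By edgeR's goodness-of-fit test at the trended dispersion, 28 of 18915 expressed genes (0.148%) varied more than genes of their own level, and none of the 41 did. Of the 41 only IAA29 (2.44%) had an unadjusted p under 0.05 in that test (edgeR adjusted p = 0.98), beside 4.61% of all expressed genes. With DESeq2's dispersion trend 0 of the 41 had one and 0 were called, beside 18 of 18915 expressed genes called. A moderate change in a single library could go uncalled by this test.

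**Figure D4:**
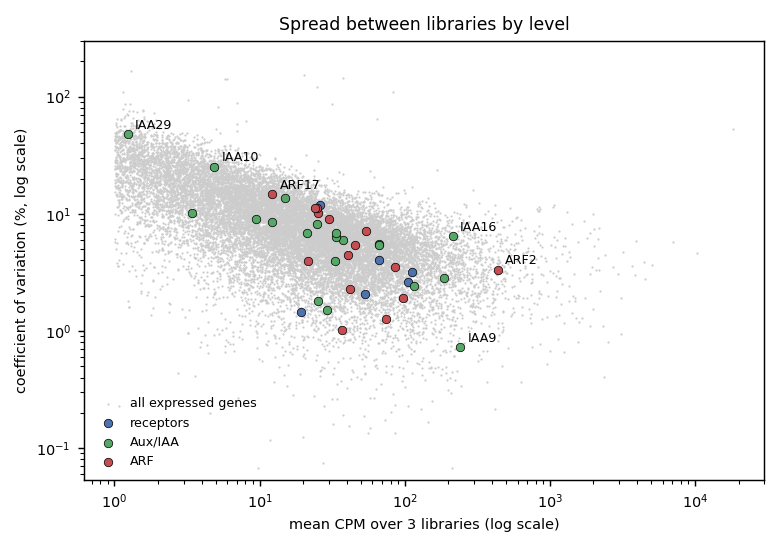
Coefficient of variation over the 3 libraries against mean CPM, both on log axes, for all expressed genes (grey) and the 41 expressed auxin response genes (coloured by family). The coloured points lie within the grey cloud; IAA29 and IAA10 are the most variable at 48.0% and 25.3%, and IAA9 the least at 0.728%.

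Against counting error alone, 14 of the 41 genes (34.1%) varied by edgeR's test at a dispersion of 0, a share near the 32.8% of all expressed genes. With counts halved, since low counts were mostly even, 2 of the 41 did (4.88%, against 6.36% of all expressed genes). These were IAA16 (edgeR adjusted p = 0.0011 on halved counts), which was lowest in replicate 3, and ARF2 (adjusted p = 0.039), which was highest there. Both genes have high counts. Over all genes, 49.9 to 51.1% of high counts were even, so the excess of even values behind the halving was not seen at that level. Leaving out replicate 3 lowered the count on the deposited values from 14 to 4, leaving out replicate 1 to 7 and leaving out replicate 2 to 9. Over all expressed genes the count fell from 6197 to 3172, 2964 and 3862 in the same order.

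Small shifts between libraries were measured for each family. In replicate 3, 6 of 20 expressed Aux/IAA genes lay above the mean of the other libraries, with a median log2 difference in level of -0.12, and 8 of 15 ARFs did, with a median of 0.04. Among all expressed genes 49.5% lay above in replicate 3, with a median of -0.002. In replicate 1 the counts were 13 of 20 Aux/IAA genes (median 0.07) and 3 of 15 ARFs (median -0.05), beside 51.4% of all expressed genes (median 0.005). In replicate 2 they were 12 of 20 (median 0.025) and 9 of 15 (median 0.005), beside 50.9% of all expressed genes (median 0.003). Of the 6 receptors, 3, 5 and 3 lay above in replicates 1, 2 and 3, with medians of -0.005, 0.053 and -0.018. Summed Aux/IAA reads were 1.18, 1.12 and 1.07 times the summed ARF reads in replicates 1, 2 and 3. The rRNA share was highest in replicate 3, and its part in these differences was not tested.

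Other genes of the auxin pathway were read from the same table, by role. The SCF subunits and cofactors that work with the receptors were all expressed, 9 of 9, with the cullin CUL1 at 208 ± 6.43 CPM and the SKP1 homologue ASK1 at 159 ± 11.3 CPM the highest and AXR1, which activates the cullin, the lowest at 35.2 ± 2.35 CPM. All 5 TPL corepressor genes were expressed, from TPL at 222 ± 4.69 CPM and TPR4 at 111 ± 6.52 CPM down to TPR3 at 34.6 ± 2.50 CPM. All 4 auxin influx carrier genes were expressed, with AUX1 at 104 ± 4.85, LAX1 at 72.1 ± 1.37 and LAX2, the lowest, at 19.3 ± 0.587 CPM.

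Auxin synthesis genes drew far fewer reads, with 6 of 14 expressed and a sum of 36.5 ± 2.75 CPM. TAA1, which makes the precursor of auxin from tryptophan, stood at 12.3 ± 1.35 CPM and its relative TAR2 at 10.1 ± 1.49 CPM, while TAR1 had no count, as did the flavin monooxygenase genes YUC10 and YUC11. Of 11 auxin response targets 6 were expressed, led by the auxin-conjugating enzyme genes GH3.6 at 53.5 ± 0.835 CPM and GH3.5 at 31.6 ± 1.47 CPM, with no count for GH3.4. Together 30 of these 43 genes were expressed (69.8%), a share near the 69.2% of protein-coding genes. None of the 30 varied beyond genes of its own level by edgeR's test, beside 0.148% of all expressed genes. In that test 1 of the 30 (3.33%) had an unadjusted p under 0.05, beside 4.61% of all expressed genes.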

How the data were processed

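The deposited table holds raw counts per gene for 3 RNA libraries, and each of its columns was matched to a sample by title. The submitters' processing notes name build TAIR10 and, with no role or order, featureCounts, HISAT2, cutadapt, SAMtools 1.13, Bowtie2 2.4.5 and deepTools 3.5.1. A stranded library kit was used, per the labels' protocols. Strand setting, read-pair counting and multi-mapping are not given in the sources, so overlapping, antisense and near-identical genes are uncertain. Names came from a RefSeq gene table of TAIR10.1, which carries all 58 member and 43 pathway names.

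CPM used TMM scaling (edgeR 4.0.16, R 4.3.3). The planned division by coding length was not made, since no lengths of that build were used. Spread was tested with edgeR on an intercept-only model (deviance, chi-square, 2 degrees of freedom) over the 18915 expressed genes, with Benjamini-Hochberg adjustment at 0.05, after a check on simulated counts. Log2 differences used a pseudocount of 0.1 CPM. Neighbours in an order were called apart where their ranges over 3 libraries did not overlap. DESeq2 1.42.0 gave alternative scaling and dispersion. The families were taken whole, by identifier, and this choice and that of the other lists were made with earlier results of these data known. All 58 genes could be named, and of each pathway list the highest 2 and the lowest.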

Additional observations from a re-analysis of the deposited data

How the results depend on the processing

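The number of genes expressed stayed between 41 and 44 of 58 under every scaling, each left-out library and a minimum of 0.5 CPM, and was 52 with any count. ARF20 crossed 1 CPM without replicate 1, without replicate 3 and with rRNA genes left out of the totals (1.09, 1.17 and 1.004 CPM), IAA32 without replicate 1 (1.17 CPM), and IAA29 fell to 0.986 CPM there. None of the 58 genes varied beyond genes of its level under any alternative, beside 6 to 35 of all genes tested. The number varying beyond counting error went from 14 to 17 with no filter, 2 with counts halved and 4 to 9 with 1 library left out. Over all genes tested it went from 6197 to 6966, 1203 and 2964 to 3862 in the same order. The activating over repressing ARF ratio without ARF2 was 0.765 (summed) and 2.60 (per gene) with the chromosome 1 group counted, and 0.767 and 1.38 with it left out; with ARF2 and without the chromosome 1 group the per-gene ratio was 0.679, which turns its direction. With 1 library left out the summed ratio ranged from 0.337 to 0.340. The Aux/IAA range was 363 at a minimum of 0.5 CPM and 153 to 207 with 1 library left out. Without replicate 1 it was 206 and was taken over IAA32, since IAA29 was then below 1 CPM, so that value is of another pair. The summed chromosome 1 group was 0.733 to 1.20 CPM with 1 library left out, and TIR1's share 28.8 to 30.0%. Of 38 neighbouring steps, 26 were clear of the spread, and 25 to 31 under the alternatives. Levels per kb of coding sequence were not run. No paired analysis was possible because there was 1 RNA group. The ARF2, neighbour-step and single-gene alternatives were added after seeing the data. Depth limits the genes under 1 CPM, where single counts decide the value.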
